A study of Dichomitus squalens with 6 samples.

Results

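Wood-decaying white-rot fungi meet cellobiose, the glucose disaccharide that cellulases release from cellulose, wherever they break down plant cell walls. In such fungi cellobiose is cut to glucose by beta-glucosidases, taken up by sugar transporters or oxidised outside the cell by cellobiose dehydrogenase. It, or sugars formed from it, is known to switch on cellulase genes in several filamentous fungi. The other sugars of the study come from other wall polymers: L-rhamnose from pectin, xylose from xylan. The 100 gene models described here had at least a 2-fold higher level on cellobiose than on either of the other sugars.

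They come from Dichomitus squalens, a basidiomycete, grown as mycelium of the wild-type monokaryotic strain CBS 464.89, kept for 5 days at 28 °C on plates of 1.5% agar. All groups shared the low-nitrogen base medium with asparagine and succinate, and each had 25 mM of 1 sugar: cellobiose (2 libraries), L-rhamnose (2 libraries) or xylose (2 libraries). Plates without an added sugar were not analysed here, so a level is high or low only against the other sugars, and induction over a sugar-free state was not measured. The labels name 2 replicates per sugar and do not say whether these were separate cultures. The strain is 1 isolate, and in RNA from whole mycelium, fewer hyphae of a kind and less RNA per hypha cannot be told apart. The series was set up to look for candidate regulators of plant biomass breakdown.

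The members were selected on the measured levels themselves. Levels are FPKM, the authors' read number scaled to coding length and library size, and C, R and X are the means of FPKM + 1 over the cellobiose, L-rhamnose and xylose libraries. Of 15295 gene models, 9894 met the limits that use no sugar contrast. They have at least 2 exons, a coding length above 400 bases and only whole expected counts (reads not shared with a similar gene), and they lie off scaffolds 52, 68 and 77. A level of C of at least 10 left 7607 models. A value of C at least 2 times both R and X left 137, and R and X less than 2-fold apart left 102. In 100 of these both cellobiose libraries were above all 4 others. The levels, folds and replicate order below therefore describe how the members were chosen and test nothing.

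The expected counts of the libraries summed to between 7306517 and 8126006. Every member was listed in all 6 libraries. The lowest count of a member was 28 and 37 in the cellobiose libraries and between 3 and 8 in the others, and under 10 counts were found for 4 and 1 members in the L-rhamnose libraries and for 4 and 5 in the xylose libraries. Folds of such members against those sugars rest on few reads. The files pair the models with JGI gene and protein numbers and with positions, not with product names, and 0 of these identifiers occur in the RefSeq annotation of the strain LYAD-421 SS1. No enzyme or transporter name is therefore given to a member, and no pathway could be counted. The 2 that lead the rankings by level and by fold are given by identifier, and others by their place on a scaffold.

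The median member stood at 50.9 and 57.0 FPKM in the cellobiose libraries, between 11.98 and 12.39 for L-rhamnose, and between 10.02 and 11.3 for xylose. Over the 9894 models within the limits the medians were nearly level, from 23.7 FPKM in xylose replicate 2 to 26.0 in cellobiose replicate 1. A typical member was thus above the median model on cellobiose and below it on both other sugars. Summed over members, FPKM came to 21645 and 27429 with cellobiose, 8775 and 6797 with L-rhamnose and 5126 and 9499 with xylose. This was 2.05% and 2.61% of the FPKM of all models on cellobiose, and 0.520% to 0.924% in the other 4 libraries. One gene carries much of that sum. Without it the sums were 14883 and 15011 with cellobiose, 4171 and 3994 with L-rhamnose and 3698 and 5212 with xylose.

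**Figure D1:**
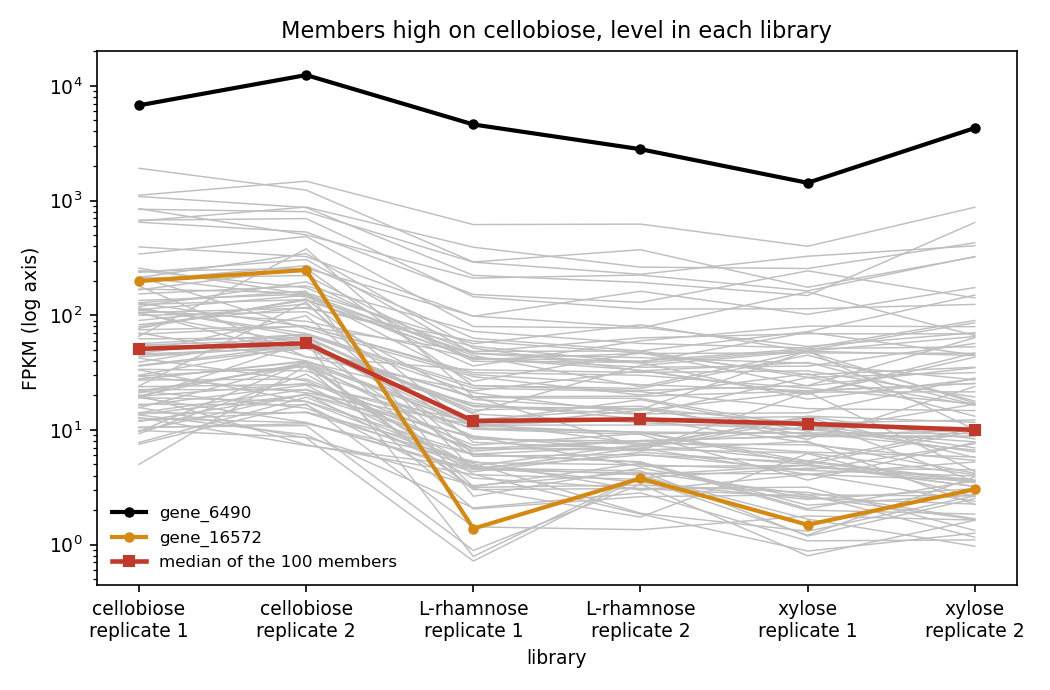
Level of each of the 100 members in the 6 libraries (FPKM, log axis), one grey line per member, with the most abundant member in black, the member with the greatest fold in orange and the median of all members in red. The median falls from 50.9 and 57.0 FPKM on cellobiose to between 10.02 and 12.39 in the other 4 libraries.

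That gene is gene_6490 (JGI protein 922130), a 8-exon model on scaffold 19 (175904 to 177557, minus strand; 963 coding bases). Its level was 6762 and 12418 FPKM with cellobiose, 4605 and 2803 with L-rhamnose and 1428 and 4287 with xylose. Both cellobiose libraries were the highest, and the lower of them was 1.47 times the highest other library. In mean ± SD (n = 2) this was 9590 ± 3999 FPKM with cellobiose, 3704 ± 1274 with L-rhamnose and 2857 ± 2022 with xylose. By mean level it held rank 3 of 15295 models with cellobiose, rank 17 with L-rhamnose and rank 19 with xylose, an abundant transcript on every sugar. Its fitted log2 difference was 1.40 ± 0.56 (SE derived from edgeR's F statistic) against L-rhamnose and 1.63 ± 0.57 against xylose. The latter was 2.62 without xylose replicate 2 and 1.06 without xylose replicate 1, and the former was 0.90 without cellobiose replicate 2.

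The greatest fold was that of gene_16572 (JGI protein 1042791), a 5-exon model on scaffold 151 (25118 to 26622, plus strand; 990 coding bases). It was at 199 and 248 FPKM with cellobiose, 1.38 and 3.78 with L-rhamnose and 1.49 and 3.04 with xylose. The 4 low values rest on 10, 29, 12 and 24 counts, against 1577 and 1942 on cellobiose. C was 62.7 times R and 68.7 times X, and the lower cellobiose library was 52.6 times the highest other library. The fitted log2 difference was 6.43 ± 0.47 (SE derived from edgeR's F statistic) against L-rhamnose and 6.50 ± 0.48 against xylose. The first was 5.89 without L-rhamnose replicate 1 and 7.38 without L-rhamnose replicate 2. The second was 6.09 without xylose replicate 1 and 7.08 without xylose replicate 2.

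The member with the next greatest fold lies on the same scaffold. This 5-exon model at 48333 to 49710 on the minus strand, with a coding length of 783 bases, was at 128 and 162 FPKM with cellobiose, 2.64 and 4.66 with L-rhamnose and 2.54 and 2.26 with xylose. C was 31.5 times the larger of R and X. These were the only members with a fold of at least 20. They are 21710 bases apart with 9 models between them, and 0 of the 9 had C at least 2 times R and X. The most abundant of the 9, a 4-exon model at 37337 to 38395, was at 142 and 129 FPKM with cellobiose, 216 and 184.5 with L-rhamnose and 163 and 168 with xylose. Among the 9 the ratio of C to the larger of R and X ran from 0.31 to 1.79.

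Folds fell off quickly below this pair. The ratio of C to the larger of R and X had a median of 2.71, with quartiles at 2.26 and 4.36. It reached at least 3 in 47 members, 4 in 28, 5 in 19 and 10 in 8. Against L-rhamnose alone the median ratio was 3.46, and against xylose alone it was 3.50. As edgeR's fitted log2 differences, members ranged from 1.08 to 6.43 against L-rhamnose (median 1.91) and from 0.91 to 6.50 against xylose (median 1.84). Over all 12667 tested genes the medians were 0.00 and -0.01.

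The other 6 members in the top 8 by fold were of moderate level. A 2-exon model at 77411 to 78199 on scaffold 88 was at 65.6 and 379 FPKM on cellobiose and between 7.17 and 19.5 in the other libraries. A 13-exon model at 237089 to 239467 on scaffold 5 was at 90.1 and 126 FPKM on cellobiose and between 4.08 and 7.80 elsewhere. On scaffold 49, the 4-exon model at 93781 to 94699 was at 19.1 and 58.0 FPKM on cellobiose and between 0.79 and 3.99 elsewhere. The models on scaffolds 88 and 49 had cellobiose libraries far apart, and the one on scaffold 5 was steadier.

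The 4-exon model at 60200 to 61573 on scaffold 97 was at 24.2 and 131 FPKM on cellobiose and between 3.64 and 6.96 in the others. On scaffold 50, the 5-exon model at 147662 to 148806 was at 46.7 and 68.9 FPKM on cellobiose and between 1.85 and 5.13 elsewhere. The 10-exon model at 882889 to 885881 on scaffold 2 was at 47.4 and 98.9 FPKM with cellobiose, 6.16 and 5.22 with L-rhamnose and 2.21 and 2.73 with xylose. In each of these 6 the lower cellobiose library was above all other libraries by the rule, and their ratios of C to the larger of R and X ran from 11.1 to 15.6.

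The 8 members highest on cellobiose had ratios of C to the larger of R and X between 2.03 and 5.27. Of these, 0 were among the 8 with the greatest fold. This did not hold further down the ranking by level, where gene_16572 had rank 16 and the model on scaffold 88 rank 17. After gene_6490 came a 4-exon model at 1988678 to 1989461 on scaffold 1, with 1912 and 1233 FPKM with cellobiose, 291 and 373 with L-rhamnose and 175 and 322 with xylose, a ratio of 4.72. A 6-exon model at 76347 to 77765 on scaffold 105 was at 674 and 696 FPKM with cellobiose, 145 and 113 with L-rhamnose and 114 and 124 with xylose, a ratio of 5.27. The 4 values off cellobiose lay between 113 and 145 FPKM in the model on scaffold 105 and between 175 and 373 in the one on scaffold 1, and both models had their cellobiose values well above these.

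Separation was narrower in the other abundant members. The 4-exon model at 48639 to 49483 on scaffold 113 was at 1113 and 1474 FPKM with cellobiose, 617 and 623 with L-rhamnose and 399 and 874 with xylose, and its ratio of 2.03 was the smallest of all members. The 3-exon model at 34856 to 35386 on scaffold 32 was at 1085 and 869 FPKM with cellobiose, 223 and 193 with L-rhamnose and 149 and 643 with xylose. Its xylose replicate 2 came close to the lower cellobiose library, while its xylose replicate 1 was below both L-rhamnose libraries.

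On scaffold 196, the 3-exon model at 34981 to 36266 was at 839 and 800 FPKM with cellobiose, 290 and 228 with L-rhamnose and 327 and 403 with xylose. The 21-exon model at 169842 to 174641 on scaffold 10 was at 664 and 878 FPKM with cellobiose, 391.8 and 263 with L-rhamnose and 256 and 428 with xylose. The 5-exon model at 19239 to 21372 on scaffold 33 was at 849 and 501 FPKM with cellobiose, 211 and 224 with L-rhamnose and 163 and 325 with xylose. Groups did not overlap in any of these, as the rule requires.

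**Figure D2:**
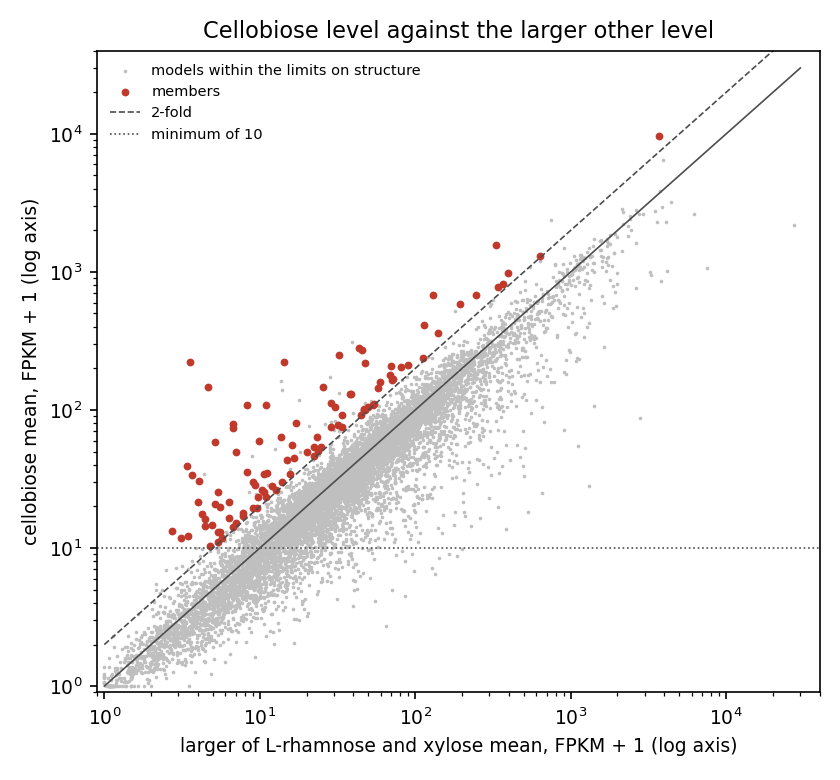
Mean level on cellobiose (FPKM + 1) against the larger of the L-rhamnose and xylose means (FPKM + 1) for the 9894 models within the limits on structure (grey) and the 100 members (red), both axes logarithmic. The dashed line marks 2-fold and the dotted line the minimum of 10, and the ratios of members run from 2.03 just above the dashed line to 62.7.

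Members ranged widely in their level off cellobiose. In 27 members the mean over the L-rhamnose and xylose libraries was under 5 FPKM. Their median ratio of C to the larger of R and X was 3.76 (2.05 to 62.7) and their median level on cellobiose was 16.6 FPKM. In 33 members at 5 to 20 FPKM the median ratio was 2.58 (2.04 to 15.6), with 33.8 FPKM on cellobiose. In 40 members at 20 FPKM or more it was 2.59 (2.03 to 7.72), with 173 FPKM on cellobiose. The 1 added to FPKM lowers the ratio of the least expressed members in particular. The minimum of 10 for C works the other way, since a model with R and X both under 5 enters only at a ratio above 2. The bands thus had unlike limits of entry by the rule, and their ratios cannot be set against each other.

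Between L-rhamnose and xylose, which the rule keeps less than 2-fold apart, R was above X in 60 members and X above R in 40, with a median ratio of R to X of 1.16. In 31 members they were within 1.2-fold. The highest library other than cellobiose was L-rhamnose replicate 1 for 34 members, L-rhamnose replicate 2 for 20, xylose replicate 1 for 26 and xylose replicate 2 for 20. No single library off cellobiose set the upper limit for most members.

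Replicates of a sugar were further apart in the members than in other genes. The cellobiose libraries differed by a median of 1.42 times over members and by at least 2 times in 15 of them. Over the 7607 models within the limits and at the same minimum on cellobiose the median was 1.16, and 2.60% differed by at least 2 times. For xylose the median was 1.58 over members, with 28 at least 2-fold apart, beside 1.18 and 7.56% of 7266 models at 9 FPKM or more on xylose. For L-rhamnose it was 1.23, with 8 at least 2-fold apart, beside 1.16 and 0.973% of 7712 models. Members include genes below 9 FPKM on L-rhamnose and xylose, where counting error is larger, so only the cellobiose figures compare genes above 1 minimum. The rule looks for differences between libraries, and the part of that choice in the wider spread was not tested.

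Cellobiose replicate 2 was above replicate 1 in 65 members, and in 11 of the 15 that were at least 2-fold apart. The widest gap was in a 10-exon model at 37778 to 39473 on scaffold 9, with 5.01 and 36.3 FPKM on cellobiose and between 0.88 and 4.11 elsewhere. The models on scaffolds 88 and 97 given above followed, at 5.79 and 5.41 times. Next was a 4-exon model at 119030 to 119947 on scaffold 80, with 180 and 43.4 FPKM with cellobiose, 21.9 and 32.7 with L-rhamnose and 38.8 and 16.6 with xylose, where replicate 1 was the higher.

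The closest agreement between the cellobiose libraries was found in a 4-exon model at 99753 to 102650 on scaffold 23, at 22.5 and 22.4 FPKM there and between 6.86 and 8.77 in the others. A 19-exon model at 56313 to 59552 on scaffold 83 was at 14.02 and 14.15 FPKM on cellobiose and between 4.47 and 7.59 elsewhere. A 10-exon model at 243200 to 244819 on scaffold 25 was at 16.8 and 16.5 FPKM and between 1.68 and 3.31 elsewhere. The 7-exon model at 49121 to 52016 on scaffold 89 was at 62.3 and 63.4 FPKM and between 7.87 and 13.8 elsewhere. Narrow spread was thus found at low as well as moderate levels.

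In all 100 members the lower cellobiose library was above the highest other one, which the rule fixes. It was at least 1.5 times that library in 84 members and at least 2 times in 51, and the smallest such factor was 1.02. A stricter picture comes from repeating the rule without each library in turn. Then 46 members stayed in the list under all 6 omissions, with a median ratio of 3.53, and the other members had a median of 2.33. Without xylose replicate 1 the rule gave 157 models, and 86 of them were members.

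**Figure D3:**
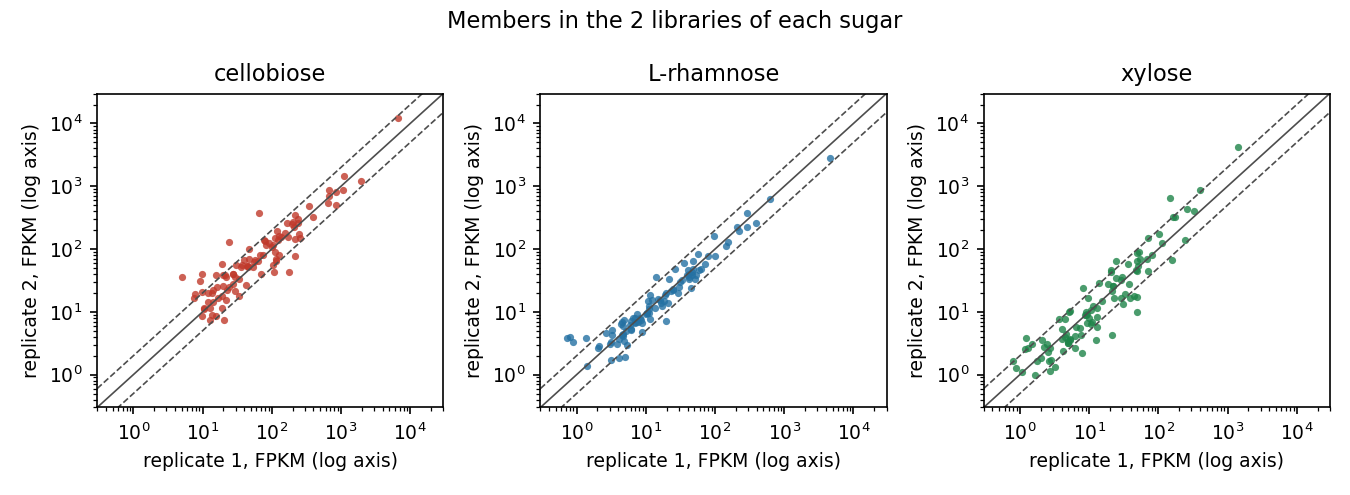
Level of the 100 members in replicate 2 against replicate 1 of each sugar (FPKM, log axes), with the line of equality and dashed lines at 2-fold. At least 2-fold apart were 15 members with cellobiose, 8 with L-rhamnose and 28 with xylose.

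edgeR's quasi-likelihood test was fitted to all 12667 genes with enough counts, which included all members, with calls at a Benjamini-Hochberg adjusted p under 0.05. Of the 100 members, 87 were called higher on cellobiose than on L-rhamnose, where 11.0% of all tested genes were called in that direction. Against xylose 58 were called, beside 2.55% of all genes. The rule used these same contrasts, so these shares are given as a description of how far a 2-fold choice and a test overlap, and not as support. Both comparisons use the same cellobiose libraries. Of the 28 members whose xylose libraries were at least 2-fold apart, 9 were called against xylose. Of the other 72 members, 49 were called against xylose.

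The most abundant member, gene_6490, was called in neither comparison, and gene_16572 and the other high-fold member of scaffold 151 were called in both. Without xylose replicate 1 or 2, gene_6490 was called against L-rhamnose, and without xylose replicate 2 also against xylose. The counts moved with single libraries. Against L-rhamnose the 87 became 31 when cellobiose replicate 2 was left out, and 12 or 14 when L-rhamnose replicate 1 or 2 was, and over all genes the 1395 calls became 159, 38 and 52. Against xylose the 58 became 35 and 28 without cellobiose replicates 1 and 2 and 30 with 1 or the other L-rhamnose library left out, and 30 in a fit of the cellobiose and xylose libraries alone. Over all genes the 323 calls became 122, 145, 126, 123 and 131 in these fits.

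Between L-rhamnose and xylose 3 members were called, beside 31.5% of all genes, and the rule keeps these groups less than 2-fold apart. A 9-exon model at 538732 to 540103 on scaffold 3 was at 19.2 and 18.8 FPKM on L-rhamnose and 10.5 in both xylose libraries, and 45.9 and 51.8 on cellobiose. The other two were higher on xylose. A 7-exon model at 122485 to 124320 on scaffold 15 was at 10.6 and 14.9 FPKM on L-rhamnose, 21.4 and 21.5 on xylose and 36.5 and 54.9 on cellobiose. A 2-exon model at 602440 to 604698 on scaffold 4 was at 63.0 and 48.9, 72.0 and 150, and 202 and 270 FPKM in the same order. Without single libraries this count ran from 0, where 5.9% of all genes were called without L-rhamnose replicate 1, to 14, where 31.7% were called without xylose replicate 2.

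The limits of the rule fell among models of like behaviour. Just inside the minimum were C values of 10.3 and 11.1, for models at 24531 to 25492 on scaffold 110 and at 27658 to 30053 on scaffold 120. Just outside were 9.96 and 9.89, for models at 89836 to 91475 on scaffold 120 and at 310017 to 311510 on scaffold 9. For the ratio, 2.03 and 2.04 were just inside, the first being the model on scaffold 113 given above and the second at 306539 to 308756 on scaffold 18. Just outside were 1.996, at 18380 to 20140 on scaffold 118, and 1.98, at 181376 to 182335 on scaffold 40. A further 31 models had the same pattern of levels and failed a limit on structure, shared reads or scaffold. Among these 7 had a single exon, 12 were 400 bases or shorter, 15 shared reads and 3 lay on a left-out scaffold, some for more than 1 reason.

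Some of these short models were abundant. A 2-exon model of 372 coding bases at 87218 to 87677 on scaffold 58 was at 5156 and 9216 FPKM with cellobiose, 4526 and 2273 with L-rhamnose and 2468 and 3994 with xylose. A 3-exon model of 279 coding bases at 161305 to 162393 on scaffold 60 was at 794 and 886 FPKM with cellobiose, 40.6 and 46.5 with L-rhamnose and 23.9 and 26.8 with xylose. FPKM of short models is less certain, since few read positions lie within them. The model whose levels were most like those of gene_6490 was also a non-member, for its counts were not whole. The measure was the root mean square difference of log2(FPKM + 1), centred per gene, over the 6 libraries and 14465 other models. At 0.20, the nearest was a 4-exon model at 127416 to 128789 on scaffold 6, with 269 and 526 FPKM with cellobiose, 183 and 115 with L-rhamnose and 81.2 and 162 with xylose. Members at 4431 to 5644 on scaffold 70 (0.30) and at 157099 to 159826 on scaffold 40 (0.33) came next. Their levels were 27.7 and 40.0 FPKM and 124 and 137 FPKM on cellobiose, so they resembled gene_6490 in pattern and not in level.

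In median number of exons and median intron the members were close to other expressed genes, and coding length and annotated UTRs differed more. They had a median of 6 exons (quartiles 4 and 9), as did the 8131 models within the limits that reached 10 on any sugar. The median coding length was 1122 bases in members and 1243 in those models. An annotated 5′ UTR was present in 61 members and a 3′ UTR in 59, beside 65.6% and 68.1%. The median over models of each model's own median intron was 60 bases in members and 59 in the others. The greatest number of exons was 21, in the abundant model on scaffold 10, followed by 19 on scaffold 83 and 18 in a model of 4401 coding bases at 431808 to 437439 on scaffold 12. The latter, the longest member, was at 45.0 and 53.5 FPKM with cellobiose, 16.3 and 13.7 with L-rhamnose and 28.7 and 16.5 with xylose.

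One length class held many members. A coding length of 600 to below 800 bases was found in 24 of 100 members, beside 11.8% of the 8131 models. With the sugars exchanged in the rule, it was found in 13.6% of 479 models high on L-rhamnose and 8.41% of 107 high on xylose. These 24 lay on 24 different scaffolds, had 2 to 12 exons and ranged from 10.7 to 685 FPKM on cellobiose, and 4 of them were among the 8 members with the greatest fold. The next class, 800 to below 1000 bases, went the other way. It held 8.0% of members, beside 12.7% of the 8131 models, 16.7% of models high on L-rhamnose and 15.9% of those high on xylose. Under 1000 bases in all were 43% of members, beside 35.2%, 45.1% and 33.6% in the same order. There were 4 members with 2 exons, beside 813 of the 8131 models. A coding length of 2000 bases or more was found in 10 members, beside 19.9% of those models, 7.72% of the models high on L-rhamnose and 6.54% of those high on xylose. The classes were drawn after the lengths had been seen, and no test was made over genes.

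**Figure D4:**
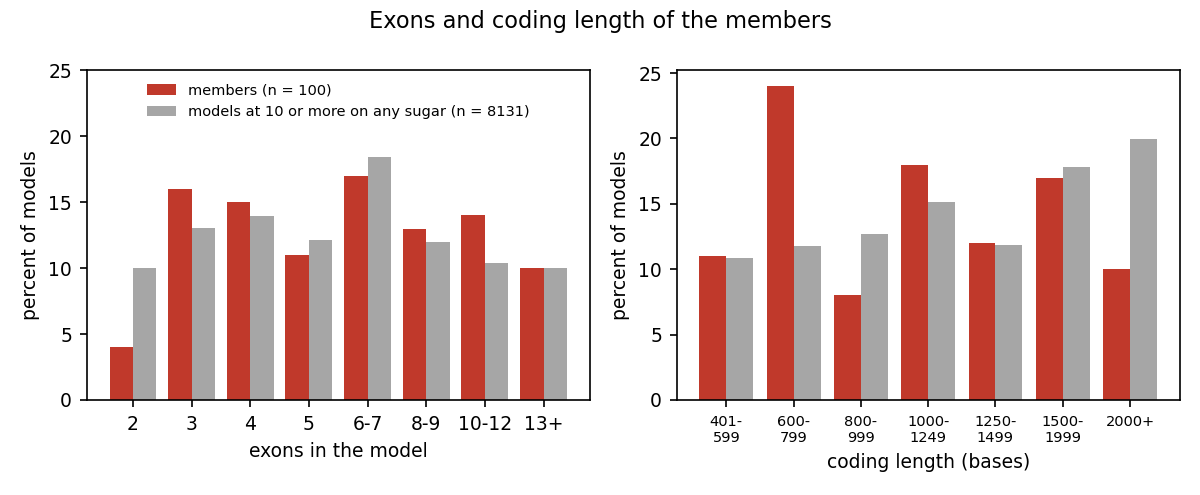
Share of models (percent, bars from 0) by number of exons (left) and by coding length in bases (right) for the 100 members (red) and the 8131 models within the limits that reached 10 on at least 1 sugar (grey). In the class of 600 to below 800 bases the bars stand at 24.0% and 11.8%, and in the next class at 8.0% and 12.7%.

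The members lay on 61 scaffolds, where the 9894 models within the limits lie on 279 and the 8131 of them that reached 10 on any sugar on 254. On 37 scaffolds there was 1 member, on 15 there were 2 and on 9 there were at least 3, the most being 5 on scaffold 1, which has 811 models within the limits. On scaffold 91, 4 of 39 such models were members, beside 1.01% of all 9894. Next to another member were 4 members, in a pair on scaffold 40 and a pair on scaffold 91. They held 4 of the 199 positions beside a member, where members are 100 of all 15295 models. Within 10000 bases of another member were 17 members in 7 groups, of which 2 groups had more than a pair. The grouping distance was chosen after the positions were seen, and the like count over other genes is not given.

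The larger of these lay on scaffold 91 between 26485 and 44322, where 4 of 6 consecutive models were members. Their mean level was 48.8 and 57.2 FPKM with cellobiose, 14.5 and 13.98 with L-rhamnose and 11.0 and 9.56 with xylose. In order along the scaffold they had ratios of 9.10, 2.47, 6.002 and 2.69. The first, a 5-exon model at 26485 to 28173 on the minus strand, was at 29.6 and 35.5 FPKM on cellobiose and between 2.05 and 2.72 in all others. The middle pair meet at their 3′ ends with 138 bases between them. The 13-exon one, at 32161 to 34935, was at 74.7 and 80.1 FPKM with cellobiose, 31.6 and 30.0 with L-rhamnose and 23.1 and 16.9 with xylose. The 11-exon one, at 35074 to 37216, was at 54.9 and 61.6 FPKM on cellobiose and between 7.97 and 8.93 in the others.

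The last of the 4, a 9-exon model at 42033 to 44322, was at 36.1 and 51.6 FPKM with cellobiose, 16.0 and 15.3 with L-rhamnose and 9.03 and 9.94 with xylose. The models between them were below the 2-fold limit. A 4-exon model at 28855 to 30215 was low throughout, at 3.34 and 4.35 FPKM with cellobiose, 1.04 and 3.20 with L-rhamnose and 1.65 and 0.72 with xylose, so its cellobiose libraries were also the highest, at a ratio of 1.55. A 22-exon model at 38562 to 41454 was at 21.8 and 27.4 FPKM with cellobiose, 37.6 and 27.95 with L-rhamnose and 19.2 and 15.8 with xylose, between the other sugars by its mean. The models just outside the group had ratios of 0.83 and 0.68, the left one overlapping the first member. A difference of 2-fold or more against both sugars was thus found in 4 models of the stretch and not in those that separate and border them.

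On scaffold 40, 3 of 4 consecutive models between 157099 and 166115 were members, at a mean of 89.5 and 107 FPKM with cellobiose, 41.0 and 31.3 with L-rhamnose and 21.6 and 35.6 with xylose. A 16-exon model on the minus strand was at 124 and 137 FPKM with cellobiose, 42.5 and 33.2 with L-rhamnose and 20.4 and 43.1 with xylose. The 9-exon model at 161607 to 163606 was at 105 and 115 FPKM, 59.5 and 46.8, and 30.3 and 35.2 in the same order. Next to it on the plus strand, 537 bases away, the 12-exon model at 164144 to 166115 was at 39.0 and 67.2, 21.1 and 13.8, and 14.1 and 28.3 FPKM. A single-exon model between the first and the second member was at 4.48 FPKM or less in every library, and the bordering models had ratios of 1.16 and 0.80.

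**Figure D5:**
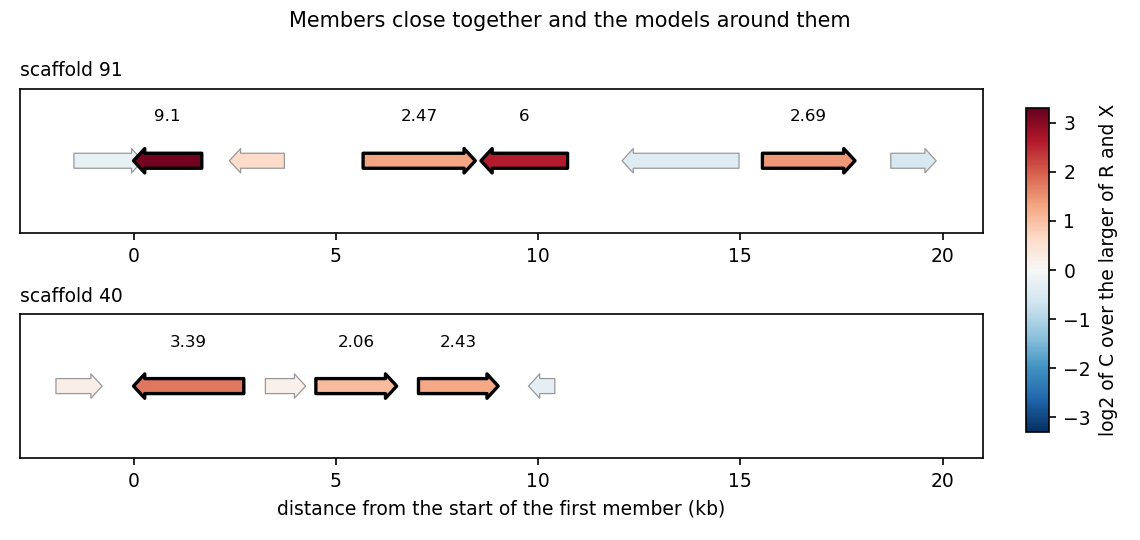
The 2 groups of at least 3 members, each member within 10000 bases of the next, and the models around them. They are drawn to scale as arrows in the direction of transcription against the distance in kb from the start of the first member. Fill gives the log2 ratio of C to the larger of R and X, black outlines mark members and the numbers above them are their ratios, 2.47 to 9.10 between ratios of 0.76 and 1.55 on scaffold 91.

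Most neighbours of members did not have C at 2 times both R and X. Over all 100 members, those on scaffolds 40, 91 and 151 included, there were 188 different non-member neighbours with reads. Of these, 10 (5.32%) had C at least 2 times R and X, beside 224 (1.55%) of all 14466 models with reads. The 224 include the 100 members, which pass by the rule, and the 188 do not, so the shares are over unlike sets. The median log2 ratio over the 188 neighbours was 0.08 for C to R and 0.20 for C to X, beside -0.04 and 0.10 over all models, and 1.79 and 1.81 in the members. Of the 10, 2 shared reads, 5 were 400 bases or shorter and 3 had R and X at least 2-fold apart. Spans of 22 members overlap that of a neighbour, and the strand setting of the counting is not given in the sources used here. These overlaps are of whole spans with introns and UTRs, and overlap of coding parts was not counted. By the rule the members had whole expected counts, taken here as reads not shared. Whether reads of an overlapping pair were given to the wrong model was not tested.

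Several of these neighbours were well expressed. Beside the abundant member on scaffold 196, and divided from it by 209 bases with transcription away from each other, a 7-exon model at 36476 to 38481 was at 191 and 211 FPKM with cellobiose, 73.4 and 61.0 with L-rhamnose and 117 and 67.9 with xylose. The member on scaffold 32 also had a divergent neighbour 2408 bases away. This 3-exon model at 37795 to 38269, of 336 coding bases, was at 1019 and 717 FPKM with cellobiose, 221 and 170 with L-rhamnose and 24.1 and 360 with xylose. In both models of that pair xylose replicate 2 was far above replicate 1. On scaffold 42, a 6-exon model at 180684 to 182221 was at 138 and 71.1 FPKM with cellobiose, 45.7 and 47.5 with L-rhamnose and 13.2 and 13.5 with xylose, so it fell outside the rule on the gap between R and X.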

How the data were processed

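RNA of 6 libraries, 2 per sugar, was analysed from 1 table per library with the coding length, expected count and FPKM of each gene model. Per the file headers, the authors' expected counts are estimated reads per model, and the deposited FPKM scales them to length and library size. Per the submitters' processing notes the tools include Bowtie2, HISAT and RSEM. Their versions, the genome build and the strand setting are not stated there. The deposited lengths equalled the summed coding parts of the gene models in 100% of entries. Models absent from a table were taken as 0, and counts within 1e-06 of a whole number as whole.

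The choice of members used FPKM as deposited. Expected counts were rounded, filtered with filterByExpr and tested with edgeR 4.0.16 (TMM factors, glmQLFit, glmQLFTest, R 4.3.3) in 1 fit of all 6 libraries, with Benjamini-Hochberg adjustment over 12667 genes. edgeR's common BCV, the biological variation between replicates, was 0.218 at 3 residual degrees of freedom, so calls rest on few samples and on a spread that may be technical. The SE of a log2 difference was taken as its absolute value over the square root of the test's F statistic. The code was tested on simulated data. Alternatives were DESeq2 1.42.0, limma 3.58.1 on log2(FPKM + 1) and log2(FPKM + 0.1), other scalings and filters, and the omission of each library. Libraries of 1 sugar were not duplicates (chi-square over its degrees of freedom 14.8 to 53.8).

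The members, the comparisons and the rule for named genes were chosen with earlier results of these data known. That rule takes 2 members by identifier, the first by level and by ratio of C to the larger of R and X. By position it takes the next 7 of each ranking, the extremes of the ratio between cellobiose libraries, runs of members, the 3 with most exons, models at the thresholds and the 3 most like the most abundant member.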

Additional observations from a re-analysis of the deposited data

How the results depend on the processing

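With other settings the rule gave 80 to 114 models, apart from 255 with a fold of 1.5, 47 with a fold of 3, and 100 to 157 without single libraries. A like size did not mean the same genes. With FPKM rescaled by TMM factors 87 of 94 models were members, and with DESeq2 size factors 85 of 95. The median log2 ratio over members against L-rhamnose, 1.79, was 1.88 with a pseudocount of 0.1 and 1.65 to 1.83 without single libraries. Against xylose, 1.81, it was 1.95 with a pseudocount of 0.1, 1.69 with FPKM rescaled by DESeq2 size factors and 1.75 to 1.98 without single libraries. The 87 members called against L-rhamnose numbered 12 to 100 without single libraries (38 to 2004 of all genes), and the 58 called against xylose 28 to 74 without single libraries (122 to 491 of all genes) and 30 in a fit of the 2 sugars only (131). The 3 members called between L-rhamnose and xylose were 5 with library size only, 7 with DESeq2, 1 with the replicate block and 0 to 14 without single libraries. Beside these 5, 7 and 1 members, 30.9%, 28.7% and 22.5% of all tested genes were called, against 31.5% in the main fit. The 4 members next to another member were 18 with a fold of 1.5, 0 with a fold of 3, 8 with single-exon and short models kept in, and 11 and 17 when counted within 5000 and 10000 bases. The cause of these moves was not tested. Without 1 library its partner stands alone, and its spread is taken from the other sugars. Replicate numbers are shared between sugars, but the labels do not say that they mark pairs, and deviations of same-numbered libraries correlated at -0.20, -0.12 and -0.09 over genes. With the replicate block, 75 and 51 members were called against L-rhamnose and xylose, beside 742 and 231 of all genes (5.86% and 1.82%). DESeq2 called 98 and 83 members, beside 12.2% and 3.77% of all genes. With limma on log2(FPKM + 1) it was 77 and 54, beside 6.97% and 2.04%. On log2(FPKM + 0.1) it was 68 and 51, beside 6.52% and 2.0%. Low counts limit the folds of members near silence on L-rhamnose and xylose.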
